A study of Mus musculus with 24 samples.

Results

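The 10 genes *Bcat2*, *Bckdha*, *Bckdhb*, *Dbt*, *Ivd*, *Mccc1*, *Mccc2*, *Hibch*, *Aldh6a1* and *Pcca*, which encode mitochondrial enzymes of branched-chain amino acid (BCAA) catabolism, were followed in cultured brown and white adipocyte precursors. They were taken by symbol from a table of 49452 genes, and all 10 were found. RNA was sequenced from the stromal-vascular fraction (SVF, the adipose tissue cells that remain after lipid-filled adipocytes are removed) of C57BL/6 mice. The cells came from brown adipose tissue (BAT) or visceral white adipose tissue (vWAT) and had received by nucleofection either a non-targeting control siRNA (siCtrl) or an siRNA against the maternally expressed long noncoding RNA *H19* (siH19). A single siRNA, named siH19_3 in the sample titles, stands behind every siH19 library, and the titles call the control siKO. They were collected at day 0 (d0) or day 3 (d3) of differentiation, in 3 libraries for each of the 8 combinations, 24 in all. Both depots were induced with insulin, dexamethasone and rosiglitazone, vWAT cells also with IBMX and BAT cells also with indomethacin and triiodothyronine (the labels name IBMX for both depots, the study's methods for white fat), and BAT cultures then continued in triiodothyronine where vWAT cultures continued in rosiglitazone. Depot, medium and sequencing depth cannot be told apart, so a difference between BAT and vWAT is a difference between these cultures. The mice were male, and tissue from several animals could be pooled for one BAT culture. Nothing in the labels says that the 3 libraries of a group came from separate animals, so p-values measure the spread between libraries, which may be technical.

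Leucine, isoleucine and valine share the first steps of their breakdown. The aminotransferase BCAT2 moves their amino group to 2-oxoglutarate inside the mitochondrion, where its cytosolic counterpart BCAT1 does so outside, and the branched-chain ketoacid dehydrogenase (BCKDH) complex then commits the ketoacids to oxidation. The routes part after that, leucine towards acetyl-CoA and acetoacetate, and valine and isoleucine towards propionyl-CoA and succinyl-CoA. Adipocytes are known to use these amino acids as a source of acetyl-CoA and odd-chain fatty acids, and brown adipocytes to oxidize them during heat production.

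Levels are given as FPKM, the unit named in the study's methods (the deposited table itself names none), in which fragments are divided by transcript length and library size, and levels of different genes can be set side by side. Differences were taken after adding 1 and moving to the log2 scale, log2(FPKM + 1), so the change of a gene with low FPKM appears smaller than it is. A gene was called when limma gave a Benjamini-Hochberg adjusted p under 0.05 over all genes tested and the difference reached 1.3-fold. For differences between changes (interactions) the adjusted p alone was used. The table holds no counts. The steps between low values put the relative depth of the libraries between 0.839 and 1.00 in BAT and between 1.03 and 1.19 in vWAT, set against 1 BAT library at d0. *H19*, the target of the siRNA, was lower in all siH19 libraries than in the siCtrl libraries of the same depot and day, at 2.82 to 5.20 against 108 to 160 FPKM in BAT at d0, 12.04 to 16.93 against 83.2 to 99.7 FPKM in BAT at d3, 0.6302 to 1.76 against 11.3 to 12.3 FPKM in vWAT at d0 and 0.291 to 0.966 against 8.19 to 8.90 FPKM in vWAT at d3. Of 8 adipocyte markers listed for this work, all were called higher at d3 than at d0 in siCtrl cells of both depots, with *Fabp4* already at 1995 FPKM in BAT and 2536 FPKM in vWAT at d0. Brown adipocyte markers were nearly absent from BAT cells at d0 (summed level 7.24 to 9.26 FPKM in siCtrl) and reached 550.3 to 616 FPKM at d3. In siCtrl vWAT cells their summed level was 15.2 to 18.6 FPKM at d0 and 132 to 149.9 FPKM at d3. *Ucp1*, their defining member, was at 0 in vWAT cells at d3. In these bulk samples, fewer cells of a type and less RNA per cell cannot be told apart.

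In the coordinates of the deposited table (GRCm38), the 10 genes lie on 8 chromosomes. *Bcat2* (ENSMUSG00000030826) lies on chromosome 7 from 45570153 to 45589711 (plus strand). The genes of the BCKDH complex are *Bckdha* (ENSMUSG00000060376) on chromosome 7 from 25629946 to 25658981 (minus strand), *Bckdhb* (ENSMUSG00000032263) on chromosome 9 from 83925145 to 84124240 (plus strand) and *Dbt* (ENSMUSG00000000340) on chromosome 3 from 116513070 to 116549981 (plus strand). The leucine branch is encoded by *Ivd* (ENSMUSG00000027332) on chromosome 2 from 118861954 to 118882909 (plus strand), *Mccc1* (ENSMUSG00000027709) on chromosome 3 from 35959312 to 36000678 (minus strand) and *Mccc2* (ENSMUSG00000021646) on chromosome 13 from 99948533 to 100015639 (minus strand). The remaining genes are *Hibch* (ENSMUSG00000041426) on chromosome 1 from 52844929 to 52920986 (plus strand), *Aldh6a1* (ENSMUSG00000021238) on chromosome 12 from 84430723 to 84450950 (minus strand) and *Pcca* (ENSMUSG00000041650) on chromosome 14 from 122534324 to 122891100 (plus strand). In the GENCODE annotation of the same build, *Bckdha* shares 1171 of its 1899 exonic bases with *B3gnt8* on the opposite strand, *Aldh6a1* shares 1078 bases with *Bbof1*, *Bcat2* shares 622 with 0610005C13Rik and *Pcca* shares 241 with *Ggact*. *Mccc1* shares 321, 198 and 94 of its 10952 exonic bases with the noncoding genes B230207O21Rik, Mccc1os and Gm15952. The strand setting of the authors' quantification is not given in the sources used here, so reads there cannot be assigned with certainty. The median levels over the 24 libraries were 0.527, 1.47, 0.532 and 10.1 FPKM for the partners of *Bckdha*, *Aldh6a1*, *Bcat2* and *Pcca*, and 0.717, 0.553 and 1.62 FPKM for those of *Mccc1*.

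The sequences before the start sites are shown because all 10 genes rose together during differentiation. RefSeq promoter windows (GRCm38.p6, 250 bases before to 50 after the start) were at hand for 9 of the 10 genes, *Dbt* excepted. Where several windows were listed, the one nearest to the gene start of the deposited table was taken, and the RefSeq starts then lay 0 to 220 bases from it, farthest for *Bckdha*. Each window was searched on both strands for 9 motifs. CCAAT, the CCAAT box, was found in 6 windows (*Aldh6a1*, *Bckdhb*, *Ivd*, *Mccc1*, *Mccc2* and *Pcca*), against 37.9% of the 27025 promoters of the same length, and GGGCGG, the GC box, in 4 (*Bckdhb*, *Hibch*, *Mccc1* and *Pcca*), against 35.9%. The nuclear receptor motif AGGTCA was found in *Bckdhb* and *Pcca*, against 16.04% of promoters, and the YY1 motif AAGATGGC in *Bckdha* at 19 bases past the start, against 2.88%. The other 5 motifs had no match in any of the 9 windows, namely AGGTCANAGGTCA, the direct repeat read by PPAR, which contains the former (0.0444% of all promoters), TCAAGGTCA, the ERR element, which also contains it (0.407%), the cAMP response element TGACGTCA (1.88%), the ETS motif CCGGAAG (9.12%) and the NRF1 core TGCGCA (8.06%). A match is a description of these letters and not a binding site. The 250 bases before the start are printed for *Bckdhb*, the E1 subunit with the larger change, and for both subunits of methylcrotonyl-CoA carboxylase, which changed by unequal amounts. Capitals mark the CCAAT boxes, GC boxes and AGGTCA, on either strand.

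Bckdhb (chr9:83924887-83925136, plus strand): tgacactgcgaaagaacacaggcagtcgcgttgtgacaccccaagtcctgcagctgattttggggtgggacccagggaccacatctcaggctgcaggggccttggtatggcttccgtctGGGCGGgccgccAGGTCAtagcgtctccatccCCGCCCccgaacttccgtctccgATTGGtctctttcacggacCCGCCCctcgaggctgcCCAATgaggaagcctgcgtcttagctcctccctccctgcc

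Mccc1 (chr3:36000679-36000928, minus strand): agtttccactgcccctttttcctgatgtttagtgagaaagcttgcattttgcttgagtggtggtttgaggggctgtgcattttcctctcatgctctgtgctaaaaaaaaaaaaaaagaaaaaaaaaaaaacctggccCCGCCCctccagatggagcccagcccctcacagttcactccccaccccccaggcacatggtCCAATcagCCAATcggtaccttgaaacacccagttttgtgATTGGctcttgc

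Mccc2 (chr13:100015640-100015889, minus strand): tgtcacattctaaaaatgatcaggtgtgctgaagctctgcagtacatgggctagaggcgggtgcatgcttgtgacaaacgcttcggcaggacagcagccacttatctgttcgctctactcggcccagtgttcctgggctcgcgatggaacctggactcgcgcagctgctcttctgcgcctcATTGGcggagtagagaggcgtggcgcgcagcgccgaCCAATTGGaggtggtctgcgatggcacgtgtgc

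The 250 bases of *Bckdhb* held 3 GC boxes, 2 CCAAT boxes and 1 AGGTCA. *Mccc1* held 3 CCAAT boxes and 1 GC box, and *Mccc2* held 3 CCAAT boxes, of which 1 pair overlaps.

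The first question was how the pathway behaves when precursors differentiate. In siCtrl cells, all 10 genes were called higher at d3 than at d0 in both depots, where 29.9% of the 13001 genes tested in BAT and 26.3% of the 13368 tested in vWAT were called higher. Their summed level was 155 to 174 FPKM at d0 and 1497 to 1609 FPKM at d3 in BAT, and 223 to 231 and 968 to 1018 FPKM in vWAT. The median log2 difference of the 10 genes was 2.98 in BAT and 1.88 in vWAT, beside -0.10 and 0.01 over all genes tested. Even the smallest rises, those of *Bckdha* in BAT and *Mccc1* in vWAT, lay at the percentiles 92.5 and 92.2 of the differences of all genes.

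*Bcat2*, the transaminase that opens the pathway, was the most abundant of the 10 in every siCtrl group. Its siCtrl BAT libraries stood at 26.4, 31.5 and 32.3 FPKM at d0 and at 426, 446 and 469 FPKM at d3. In vWAT they stood at 36.8, 36.99 and 37.2 FPKM at d0 and at 351, 352 and 367 FPKM at d3. The groups were far apart in both depots, with log2 differences of 3.85 (standard error 0.082, adjusted p = 7.8e-08) in BAT and 3.23 (standard error 0.035, adjusted p = 3.1e-08) in vWAT. *Bcat2* made up 17.9% ± 0.770 (SD, n = 3) of the summed FPKM of the 10 genes in BAT at d0 and 28.7% ± 0.386 at d3, and 16.4% ± 0.246 and 35.9% ± 0.452 in vWAT.

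**Figure D1:**
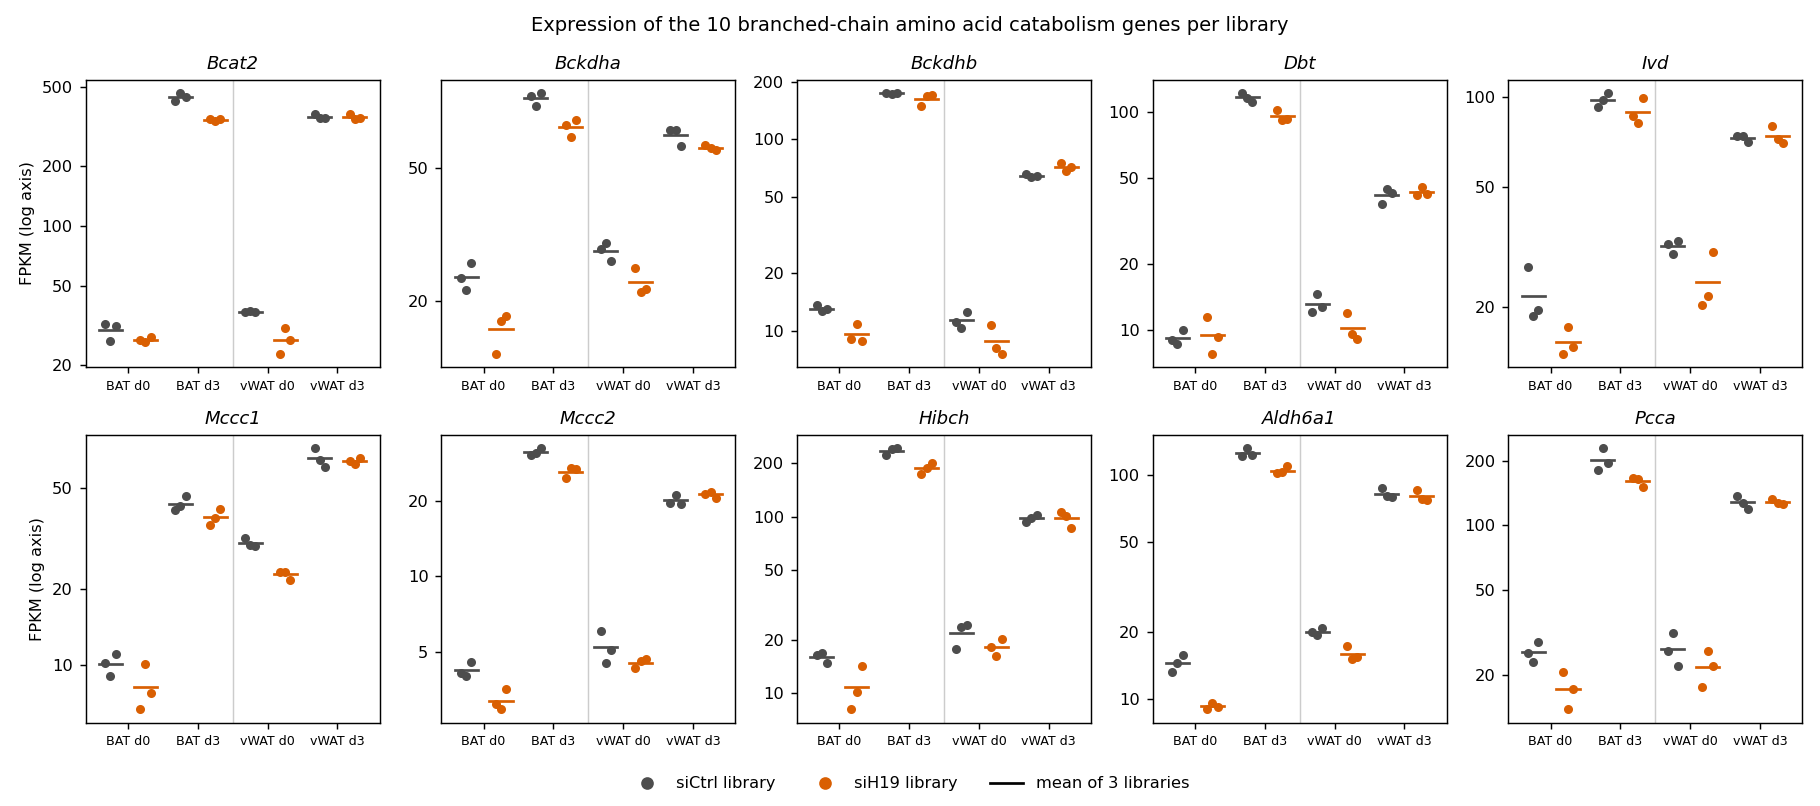
FPKM (log axis, a separate range in each panel) of the 10 genes in each of the 24 libraries, with siCtrl in grey and siH19 in orange, and bars at the mean of 3 libraries. Every gene sits higher at d3 than at d0 in both depots, and *Mccc1* alone among the 10 is higher in vWAT than in BAT siCtrl cells at d3.

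The BCKDH complex joins an E1 enzyme, built from the α subunit BCKDHA and the β subunit BCKDHB, to the E2 core DBT, which carries the lipoyl group. *Bckdha* libraries stood at 21.6, 23.4 and 25.97 FPKM at d0 and 76.8, 82.4 and 84.3 FPKM at d3 in siCtrl BAT cells, and at 26.4, 28.7 and 29.8 FPKM at d0 and 58.4, 65.1 and 65.3 FPKM at d3 in vWAT. This was the smallest rise of the 10 genes in BAT, 1.74 (standard error 0.075, adjusted p = 1.5e-06), and among the smallest in vWAT, 1.12 (standard error 0.068, adjusted p = 1.5e-05). *Bckdhb* started lower, at 12.6, 12.9 and 13.6 FPKM in BAT and 10.4, 11.1 and 12.6 FPKM in vWAT, and ended at 174, 175 and 175 FPKM in BAT and 63.4, 64.7 and 65.6 FPKM in vWAT. Its log2 differences were 3.65 (standard error 0.043, adjusted p = 1.3e-08) and 2.41 (standard error 0.071, adjusted p = 7.8e-07). *Dbt* stood at 8.604, 9.02 and 9.96 FPKM at d0 and 112, 117 and 123 FPKM at d3 in BAT and at 12.03, 12.7 and 14.7 FPKM at d0 and 37.99, 42.8 and 44.6 FPKM at d3 in vWAT, with log2 differences of 3.54 (standard error 0.067, adjusted p = 5.7e-08) and 1.60 (standard error 0.092, adjusted p = 1.2e-05). The order of the E1 subunit mRNAs therefore turned during differentiation of BAT cells. That of the α subunit was the higher in every siCtrl library at d0 and the lower in every one at d3.

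The leucine branch runs through isovaleryl-CoA dehydrogenase (IVD) and the biotin enzyme methylcrotonyl-CoA carboxylase, whose α subunit MCCC1 carries the biotin and whose β subunit MCCC2 transfers the carboxyl group. *Ivd* stood at 18.7, 19.4 and 26.99 FPKM at d0 and 92.5, 97.2 and 103 FPKM at d3 in siCtrl BAT cells, and at 29.9, 32.4 and 33.1 FPKM at d0 and 70.4, 73.8 and 73.97 FPKM at d3 in vWAT. *Mccc1* stood at 8.999, 10.1 and 11.01 FPKM at d0 and 40.99, 42.4 and 46.5 FPKM at d3 in BAT, and at 29.5, 29.8 and 31.9 FPKM at d0 and 60.4, 64.7 and 71.8 FPKM at d3 in vWAT. *Mccc2*, the least abundant of the 10 in every siCtrl group, stood at 3.99, 4.13 and 4.54 FPKM at d0 and 30.6, 31.2 and 32.5 FPKM at d3 in BAT, and at 4.497, 5.08 and 6.06 FPKM at d0 and 19.5, 19.7 and 21.1 FPKM at d3 in vWAT. All d3 libraries lay above all d0 libraries of the same depot for these 3 genes, as they did for 36.1% of all genes in BAT and 36.2% in vWAT. The log2 differences in BAT were 2.14 (standard error 0.14, adjusted p = 1.0e-05) for *Ivd*, 2.01 (standard error 0.086, adjusted p = 1.4e-06) for *Mccc1* and 2.64 (standard error 0.066, adjusted p = 1.4e-07) for *Mccc2*. Those in vWAT were 1.17 (standard error 0.052, adjusted p = 4.0e-06), 1.08 (standard error 0.071, adjusted p = 2.2e-05) and 1.77 (standard error 0.10, adjusted p = 1.2e-05).

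On the valine branch, HIBCH frees 3-hydroxyisobutyrate from its CoA ester, and ALDH6A1 turns methylmalonate semialdehyde into propionyl-CoA. *Hibch* stood at 14.9, 16.4 and 16.9 FPKM at d0 and 224, 242 and 244 FPKM at d3 in siCtrl BAT cells and at 17.8, 23.6 and 24.2 FPKM at d0 and 93.4, 98.3 and 102 FPKM at d3 in vWAT. *Aldh6a1* stood at 13.2, 14.4 and 15.7 FPKM at d0 and 122, 123 and 131 FPKM at d3 in BAT and at 19.3, 19.96 and 20.7 FPKM at d0 and 79.3, 80.8 and 87.3 FPKM at d3 in vWAT. *Pcca*, the biotin-carrying α subunit of propionyl-CoA carboxylase, where the valine and isoleucine routes meet, stood at 23.1, 25.2 and 28.6 FPKM at d0 and 181, 195 and 228 FPKM at d3 in BAT and at 22.1, 26 and 31.5 FPKM at d0 and 119, 127 and 136 FPKM at d3 in vWAT. All d3 libraries lay above all d0 libraries of the same depot for these 3 genes too, as for 36.1% of all genes in BAT and 36.2% in vWAT. In BAT the log2 differences were 3.80 (standard error 0.062, adjusted p = 3.6e-08) for *Hibch*, 3.03 (standard error 0.071, adjusted p = 1.1e-07) for *Aldh6a1* and 2.92 (standard error 0.11, adjusted p = 7.0e-07) for *Pcca*. In vWAT they were 2.12 (standard error 0.12, adjusted p = 9.8e-06), 1.99 (standard error 0.054, adjusted p = 5.7e-07) and 2.23 (standard error 0.12, adjusted p = 1.1e-05).

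The order of the levels was spread out at d3 and close at d0. In siCtrl BAT cells at d3 it ran from *Bcat2* (447 ± 21.8 FPKM, SD, n = 3) over *Hibch* (237 ± 10.9), *Pcca* (201 ± 24.03), *Bckdhb* (175 ± 0.728), *Aldh6a1* (125 ± 5.36), *Dbt* (117 ± 5.77), *Ivd* (97.5 ± 5.21), *Bckdha* (81.2 ± 3.903) and *Mccc1* (43.3 ± 2.89) to *Mccc2* (31.4 ± 0.984). Of these neighbours, *Hibch* and *Pcca* overlapped, as did *Aldh6a1* and *Dbt*. In vWAT at d3 the order was *Bcat2*, *Pcca*, *Hibch*, *Aldh6a1*, *Ivd*, *Mccc1*, *Bckdhb*, *Bckdha*, *Dbt* and *Mccc2*, and the libraries of *Ivd*, *Mccc1*, *Bckdhb* and *Bckdha* overlapped from each to the next. At d0 most neighbours overlapped, and only *Mccc2* lay below all other members in both depots.

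In siH19 cells, too, all 10 genes were called higher at d3 than at d0, where 30.8% of genes were called higher in BAT and 28.2% in vWAT. The log2 differences ran from 1.96 (*Bckdha*) to 4.03 (*Hibch*) in BAT, with a median of 3.19, and from 1.31 (*Bckdha*) to 3.69 (*Bcat2*) in vWAT, with a median of 2.14.

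All 10 genes rose more in BAT than in vWAT. The interaction of depot and day in siCtrl cells was called for each of them, in the direction of a larger rise in BAT, where 24.9% of the 14111 genes tested were called in that direction. The difference between the rises was largest for *Dbt*, at 1.94 (standard error 0.12, adjusted p = 2.5e-07) on the log2 scale, followed by *Hibch* at 1.68 (standard error 0.14, adjusted p = 2.8e-06) and *Bckdhb* at 1.23 (standard error 0.082, adjusted p = 4.5e-07). It was 1.04 for *Aldh6a1*, 0.97 for *Ivd*, 0.92 for *Mccc1*, 0.86 for *Mccc2*, 0.69 for *Pcca*, 0.62 for *Bcat2* and 0.61 for *Bckdha*. The same interaction was called for 8 of 8 adipocyte markers (median 1.26), 7 of 7 genes of a list of related enzymes, the subunits of the pyruvate and oxoglutarate dehydrogenase complexes and pyruvate carboxylase (*Pcx* in the table) (median 1.65) and 14 of 14 mitochondrial housekeeping genes (median 0.87), beside a median of 0.94 for the 10 genes and -0.04 for all genes. The part of adipocyte number or mitochondrial content in the result was not tested.

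**Figure D2:**
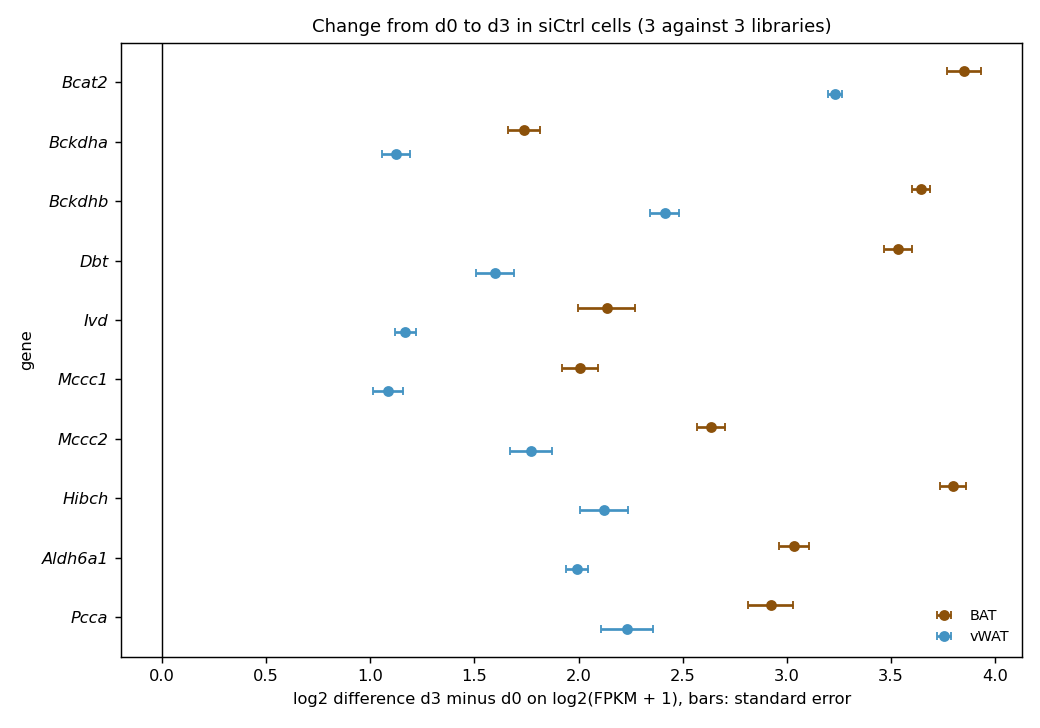
Log2 difference between d3 and d0 in siCtrl cells on the log2(FPKM + 1) scale, for BAT (brown) and vWAT (blue), with bars of 1 standard error from limma. All 10 genes lie to the right of 0 in both depots and further right in BAT, with the widest gap for *Dbt* (3.54 against 1.60).

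The depots were then compared at each day. At d0, 5 of the 10 genes were called lower in BAT than in vWAT siCtrl cells, where 21.0% of the 13139 genes tested were called lower. *Mccc1* stood out among them, at 10.1 ± 1.01 FPKM in BAT and 30.4 ± 1.27 FPKM in vWAT (SD, n = 3 each), a log2 difference of -1.51 (standard error 0.080, adjusted p = 2.0e-05). *Ivd* (-0.55), *Dbt* (-0.47), *Aldh6a1* (-0.45) and *Hibch* (-0.41) were the other called genes. Scaling of the libraries by median ratios moved the median of all genes by 0.10 towards BAT, and then only *Mccc1* and *Ivd* were called. When 1 of the 6 libraries was left out in turn, *Hibch* was called in 1 of the 6 fits and *Ivd* in 3, and *Mccc1*, *Dbt* and *Aldh6a1* in all 6. Only those 3 were called without BAT library 3 or vWAT library 3. *Hibch* was also not called without the filter on low values (adjusted p = 0.070).

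At d3 the picture had turned, with 7 of the 10 genes called higher in BAT and 1 called lower, where 16.5% of the 13120 genes tested were called higher and 32.1% were called lower. The genes with the largest differences were *Dbt* at 1.47 (standard error 0.070, adjusted p = 5.5e-06), *Bckdhb* at 1.42 (standard error 0.033, adjusted p = 4.6e-07) and *Hibch* at 1.27 (standard error 0.050, adjusted p = 2.6e-06). *Pcca* (0.65), *Mccc2* (0.62), *Aldh6a1* (0.60) and *Ivd* (0.42) followed. *Bckdha* (0.36, adjusted p = 0.0019) and *Bcat2* (0.33, adjusted p = 7.0e-04) passed the adjusted p in the same direction and stayed below 1.3-fold. *Mccc1* was the exception and stayed lower in BAT, at 40.99, 42.4 and 46.5 FPKM against 60.4, 64.7 and 71.8 FPKM in vWAT, a log2 difference of -0.59 (standard error 0.078, adjusted p = 6.2e-04). Markers of other cell types differed between these cultures as well. The summed level of 5 mesothelial markers in siCtrl cells was 114 to 132 FPKM in vWAT and 5.14 to 5.92 FPKM in BAT at d0, and 39.1 to 45.4 and 1.36 to 3.44 FPKM at d3, with *Upk3b* at no more than 0.0141 FPKM in BAT. All 5 were called lower in BAT at d0, where 21.0% of all genes were. At d3, 4 were called lower, and 1 lay above 0 and was not called. The summed level of 5 muscle lineage markers overlapped between the depots at d0, at 30.1 to 39.02 FPKM in vWAT and 33.8 to 56.02 FPKM in BAT. At d3 it was 9.66 to 14.3 FPKM in vWAT and 27.2 to 33.5 FPKM in BAT. The sum hides single genes. Of the 4 muscle lineage markers tested at d0, 3 were called higher and 1 lower in BAT (median log2 difference 2.04). Over all genes, 1343 of 13139 were called higher and 2753 lower at d0. The summed level of 5 macrophage and leukocyte markers was 41.5 to 41.96 FPKM in vWAT and 10.3 to 10.5 FPKM in BAT at d3, and the myogenic gene *Myog* was at 8.93 ± 1.69 FPKM in BAT and at 0 in vWAT. Their part in the depot differences was not tested.

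Genes that work as a pair were next set against each other within each library. These ratios of FPKM were chosen after the values were seen and are given without a test, since an exact permutation test of 3 against 3 libraries cannot give a p below 0.1. *Bcat1*, the cytosolic aminotransferase, was called lower at d3 in both depots, at 98.7 ± 7.63 FPKM at d0 and 45.4 ± 4.19 FPKM at d3 in siCtrl BAT cells (log2 difference -1.10, standard error 0.084, adjusted p = 2.4e-05), and 96.9 ± 3.62 and 31.4 ± 4.98 FPKM in vWAT (log2 difference -1.61, standard error 0.11, adjusted p = 2.9e-05). The ratio of *Bcat2* to *Bcat1* was therefore 0.246, 0.333 and 0.344 in the siCtrl BAT libraries at d0 and 9.41, 9.48 and 10.8 at d3, and 0.367, 0.383 and 0.398 at d0 and 9.84, 10.8 and 14.2 at d3 in vWAT. The mRNA of the cytosolic form was the higher in every library at d0 and that of the mitochondrial form in every library at d3. The ratio of *Bckdha* to *Bckdhb* was 1.72, 1.72 and 2.01 at d0 and 0.442, 0.4701 and 0.482 at d3 in BAT, and 2.103, 2.59 and 2.87 at d0 and 0.902, 0.996 and 1.03 at d3 in vWAT. The ratio of *Mccc1* to *Mccc2* was 2.25, 2.42 and 2.46 at d0 and 1.34, 1.36 and 1.43 at d3 in BAT, against 5.25, 5.81 and 6.62 at d0 and 3.06, 3.09 and 3.64 at d3 in vWAT. It separated the depots at each day and the days in each depot without overlap. *Pcca* was set against *Pccb*, its β subunit, and that ratio was 1.47, 1.56 and 1.93 at d0 and 3.27, 3.36 and 3.57 at d3 in BAT, and 0.981, 1.37 and 1.75 at d0 and 2.81, 2.96 and 3.4 at d3 in vWAT, with overlap between the depots at both days.

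**Figure D3:**
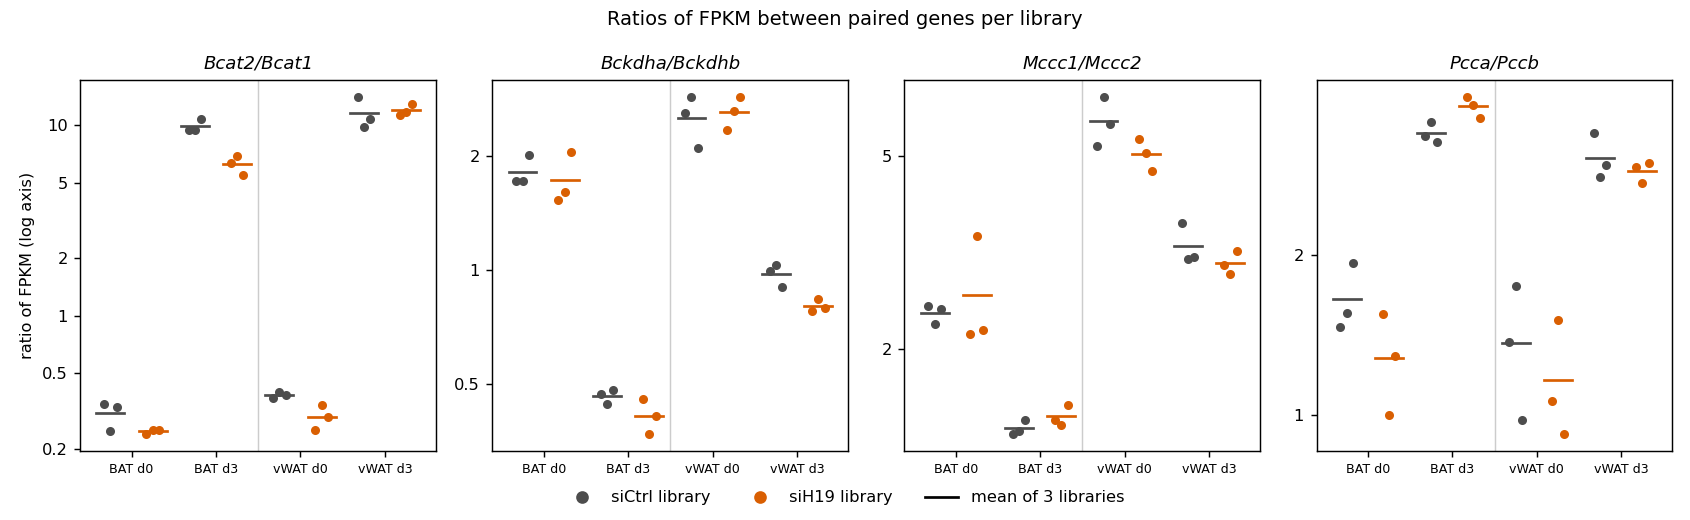
Ratio of FPKM (log axis) between paired genes in each library, with siCtrl in grey, siH19 in orange and bars at the mean of 3 libraries. The *Bcat2* to *Bcat1* ratio lies below 1 in all d0 libraries and above 5 in all d3 libraries. The *Mccc1* to *Mccc2* ratio lies above 1 everywhere and is higher in vWAT than in BAT libraries of the same day.

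The rest of the pathway moved in the same direction. Of 15 further enzymes tested, 14 were called higher at d3 than at d0 in siCtrl cells of each depot and 1, *Bcat1*, was called lower. *Dld*, the E3 subunit that BCKDH shares with other dehydrogenase complexes, was at 63.2 ± 0.4899 and 417 ± 12.5 FPKM in BAT (log2 difference 2.70) and at 70.1 ± 1.22 and 165 ± 5.29 FPKM in vWAT (1.22). *Hibadh*, the valine enzyme that follows *Hibch*, had log2 differences of 2.93 and 1.76, and *Echs1*, which hydrates enoyl-CoA esters, of 2.85 and 1.47. *Mcee* (2.43 and 1.51) and *Mut* (2.52 and 1.55), which carry methylmalonyl-CoA on to succinyl-CoA, rose as well. The smallest rise among these enzymes in BAT was that of *Abat* (0.76), which had a log2 difference of 1.57 in vWAT. Of 10 cofactor genes, 9 were called higher in BAT and 6 in vWAT, where 29.9% and 26.3% of all genes were.

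Transporters and regulators were mixed, with 4 of 8 called higher and 3 called lower in BAT, and 6 called higher and 2 called lower in vWAT. Over all genes, 3881 of 13001 were called higher and 4590 lower in BAT, and 3519 of 13368 higher and 3201 lower in vWAT. *Slc25a44*, the mitochondrial BCAA carrier, rose from 10.6 ± 0.319 to 50.5 ± 0.831 FPKM in siCtrl BAT cells (log2 difference 2.15, standard error 0.048, adjusted p = 8.9e-08) and from 13.3 ± 0.497 to 28.9 ± 0.694 FPKM in vWAT (1.06, standard error 0.052, adjusted p = 6.2e-06). *Bckdk*, the kinase that inactivates BCKDH, rose by 0.89 and 0.62, and *Ppm1k*, the phosphatase that reactivates it, by 1.90 and 0.62. *Ppm1k* was far lower, and the added 1 shrinks the change of a low gene. The FPKM ratio of *Ppm1k* to *Bckdk* was 0.0144 to 0.0659 at d0 and 0.107 to 0.133 at d3 in siCtrl BAT libraries. In vWAT it was 0.0181 to 0.0300 and 0.0289 to 0.0419, with overlap between the days. *Klf15*, a transcription factor linked to amino acid breakdown, rose by 2.17 and 2.48 and was lower in BAT than in vWAT at d3 (-1.28, adjusted p = 6.3e-06), opposite to *Ppm1k* (1.13, adjusted p = 1.8e-04). At the plasma membrane, *Slc3a2*, the heavy chain of amino acid exchangers, fell in both depots (-0.57 and -0.52). *Slc43a1* fell in BAT (-0.61) and rose in vWAT (0.97), and so did *Slc7a8* (-0.53 and 0.91). The interaction of depot and day was called for both (adjusted p = 1.2e-04 and 6.9e-06).

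**Figure D4:**
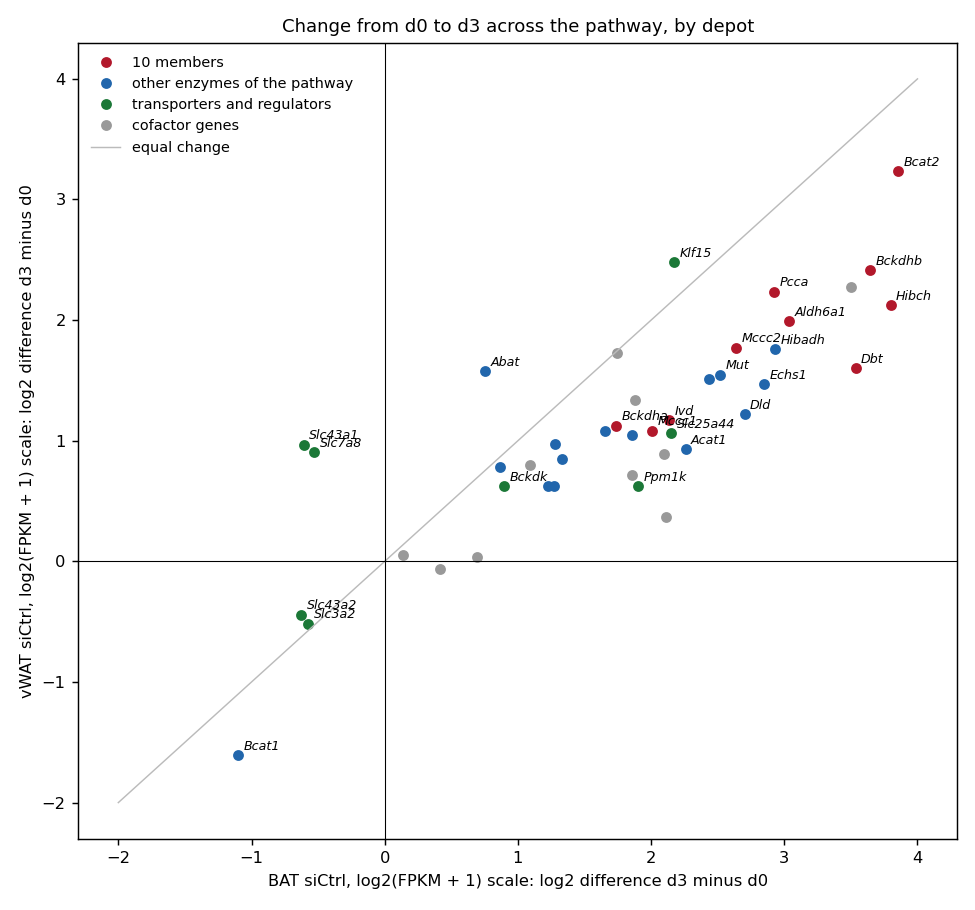
Log2 difference between d3 and d0 on the log2(FPKM + 1) scale in siCtrl BAT (horizontal axis) and siCtrl vWAT cells (vertical axis) for the 10 members, 15 further enzymes, 8 transporters and regulators and 10 cofactor genes, with the line of equal change. The 10 members lie to the lower right of the line, *Bcat1* lies at the lower left, and *Slc43a1* and *Slc7a8* lie at the upper left.

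The second question was whether loss of *H19* changes the pathway. The siCtrl groups used here also enter the comparisons above. In BAT cells at d3 all 10 genes had lower means in siH19 than in siCtrl cells, by a small amount each. The log2 differences ran from -0.38 to -0.11 with a median of -0.27, beside 0.05 over all genes, and the summed level of the 10 was 1253 to 1309 FPKM against 1497 to 1609 FPKM. None of the 10 was called by limma, where 2.18% of the 12500 genes tested were called lower. An unadjusted p-value under 0.05 was found for 7 of the 10 and for 3913 of the 12500 genes. Without the minimum fold change, 6 of the 10 passed the adjusted p from limma, all lower, where 5.61% of all genes did so in that direction. For 8 of the 10, every siH19 library lay below every siCtrl library, as it did for 13.1% of genes.

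*Bcat2* came closest to being called, at 338, 346 and 348 FPKM in siH19 and 426, 446 and 469 FPKM in siCtrl BAT cells at d3. Its log2 difference of -0.38 (standard error 0.043, adjusted p = 0.0040) lay just short of 1.3-fold, and it was called with median ratio scaling and in the fits without siCtrl library 1, siH19 library 1 or siH19 library 3. *Hibch* stood at 174, 188 and 201 against 224, 242 and 244 FPKM, a log2 difference of -0.33 (standard error 0.063, adjusted p = 0.017). *Dbt* (-0.28, standard error 0.058, adjusted p = 0.022) and *Bckdha* (-0.28, standard error 0.062, adjusted p = 0.027) of the BCKDH complex were lower by a like amount, at 92.5, 93.3 and 102 against 112, 117 and 123 FPKM and 62.03, 67.7 and 69.99 against 76.8, 82.4 and 84.3 FPKM. *Aldh6a1* (-0.26, standard error 0.049, adjusted p = 0.018) and *Mccc2* (-0.25, standard error 0.057, adjusted p = 0.029) were the other genes past the adjusted p. *Pcca*, at 150.2, 164 and 165 against 181, 195 and 228 FPKM, missed it with -0.32 (standard error 0.089, adjusted p = 0.053). *Bckdhb* (-0.11, standard error 0.057, adjusted p = 0.26), *Mccc1* (-0.18, standard error 0.075, adjusted p = 0.17) and *Ivd* (-0.13, standard error 0.079, adjusted p = 0.31) had the smallest differences, and the libraries of *Mccc1* and *Ivd* overlapped.

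In vWAT cells at d3 none of the 10 genes was called, where 0.0229% of the 13097 genes tested were called lower. None was called under any of the alternatives tried, and 1, *Bckdhb*, had an unadjusted p-value under 0.05 from limma, as had 1315 of all genes. The log2 differences ran from -0.12 (*Bckdha*) to 0.15 (*Bckdhb*) with a median of 0.00, and 5 of the 10 lay above 0. *Bcat2* stood at 346, 352 and 367 FPKM in siH19 and 351, 352 and 367 FPKM in siCtrl cells. The difference between the depots was itself tested as the interaction of depot and siRNA at d3. It lay below 0 for all 10 genes (median -0.29, beside 0.06 over all genes) and was called for *Bcat2*, at -0.37 (standard error 0.055, adjusted p = 0.0031), and *Mccc2*, at -0.33 (standard error 0.070, adjusted p = 0.015), where 3.52% of the 13762 genes tested were called in this direction. The same interaction was called below 0 for 6 of 8 adipocyte markers (median -0.25) and 5 of 6 brown adipocyte markers (median -1.24). It was also called below 0 for 7 of 7 related enzyme genes, *Pcx* included (median -0.34), and 8 of 14 mitochondrial housekeeping genes (median -0.28). Of 15 further pathway enzymes, 4 were called below 0 (median -0.18). The part of these lists in the values of the 10 genes was not tested. With median ratio scaling the interaction was called for 6 of the 10 genes, *Bckdhb*, *Dbt*, *Hibch* and *Aldh6a1* in addition.

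**Figure D5:**
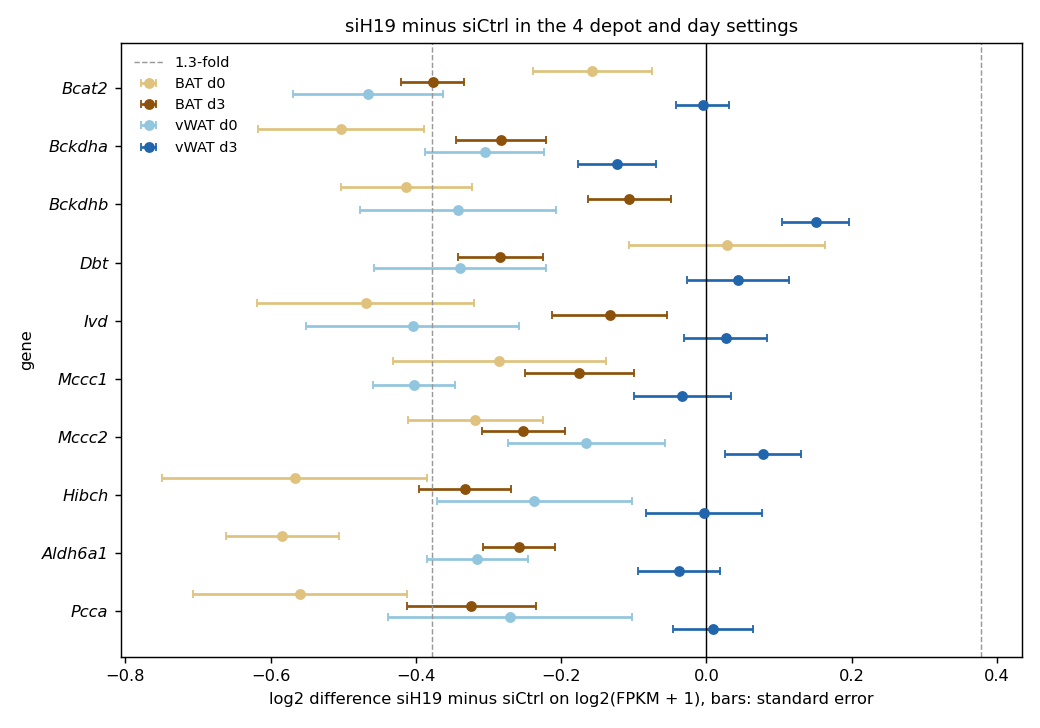
Log2 difference between siH19 and siCtrl cells on the log2(FPKM + 1) scale for the 10 genes in each depot and day, with bars of 1 standard error from limma and dashed lines at 1.3-fold in either direction. The vWAT values at d3 lie around 0, from -0.12 to 0.15, whereas the other settings lie below 0 apart from *Dbt* in BAT at d0.

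In BAT at d0, before differentiation, 9 of the 10 lay below 0 with a median log2 difference of -0.44, beside -0.03 over all genes. The summed level was 122 to 130.5 FPKM in siH19 and 155 to 174 FPKM in siCtrl cells. *Aldh6a1* was the 1 gene called, at 8.99, 9.25 and 9.59 FPKM against 13.2, 14.4 and 15.7 FPKM (-0.58, standard error 0.078, adjusted p = 0.025), where 1.32% of the 12651 genes tested were called lower. For 7 of the 10, all siH19 libraries lay below all siCtrl libraries, as they did for 16.1% of genes. *Hibch* (-0.57, adjusted p = 0.16), *Pcca* (-0.56, adjusted p = 0.10), *Bckdha* (-0.50, adjusted p = 0.074) and *Ivd* (-0.47, adjusted p = 0.15) had differences of like size that did not pass. In a single fit of all 24 libraries, which share one estimate of the spread, 6 of the 10 were called lower, where 2.90% of genes were. With any 1 of the 6 libraries left out, *Aldh6a1* was no longer called.

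In vWAT at d0 all 10 genes lay below 0, with a median log2 difference of -0.33 beside -0.03 over all genes and summed levels of 172 to 179.7 FPKM in siH19 and 223 to 231 FPKM in siCtrl cells. *Mccc1* was the 1 gene called, at 21.7, 23.2 and 23.3 FPKM against 29.5, 29.8 and 31.9 FPKM (-0.40, standard error 0.057, adjusted p = 0.024), where 1.20% of the 13063 genes tested were called lower. With any 1 of the 6 libraries left out, *Mccc1* was no longer called, and without the third siH19 library *Ivd* was called (log2 difference -0.58). *Bcat2* was at 22.7, 26.8 and 30.7 FPKM against 36.8, 36.99 and 37.2 FPKM (-0.47, standard error 0.10, adjusted p = 0.085), and was called beside *Mccc1* in the single fit of all 24 libraries. For 5 of the 10 genes all siH19 libraries lay below all siCtrl libraries, as they did for 16.2% of genes.

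In BAT the siH19 difference was compared between the days by their interaction. It was called for *Aldh6a1* alone, where 7.79% of the 13575 genes tested were called in the same direction, with a smaller deficit at d3 than at d0 (0.33, standard error 0.088, adjusted p = 0.045). Leaving out 1 of the 12 libraries in turn kept this call only without siCtrl library 1 of d0. *Dbt* (-0.31) and *Bcat2* (-0.22) had values of the opposite sign, a larger deficit at d3, and did not pass. The median of this interaction was 0.23 over the 10 genes, 8 of them above 0, beside 0.09 over all genes.

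Some markers of the cell state differed between siH19 and siCtrl cells as well. At d0 none of 6 precursor markers was called in BAT (median 0.0055) or in vWAT (median -0.093). None of the brown adipocyte markers tested was called at d0 either, 2 in BAT and 1 in vWAT. In BAT at d0, 6 of 8 adipocyte markers were called lower in siH19 cells (median -0.87), with summed levels of 1597 to 2135 against 3171 to 3448 FPKM, and in vWAT at d0 6 of 8 were (median -0.69), with 2448 to 2763 against 4167 to 4169 FPKM. In BAT at d3 none of the 8 was called lower (median -0.14), although 3 passed the adjusted p, all lower, and 7 had every siH19 library below every siCtrl library, with 34870 to 37210 against 38360 to 40090 FPKM, but 5 of 6 brown adipocyte markers were (median -1.04), with 316 to 378 against 550.3 to 616 FPKM. Of 5 precursor markers tested there, 4 were called higher, with summed levels of all 6 listed of 635 to 693 against 384 to 429.7 FPKM. That of 5 muscle lineage markers was 37.4 to 46.6 against 27.2 to 33.5 FPKM, and that of 5 macrophage and leukocyte markers 6.69 to 7.68 against 10.3 to 10.5 FPKM. In vWAT at d3 none of the adipocyte, brown adipocyte or precursor markers tested was called. The part of these shifts in the values of the 10 genes was not tested.

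Of the further enzymes of the pathway, 1 of 15 was called in BAT at d3, namely *Pccb*, the partner of *Pcca*, which was lower in siH19 at 41.9 ± 0.735 FPKM against 59.1 ± 4.97 FPKM (-0.48, standard error 0.067, adjusted p = 0.0063). *Dld* (-0.35, standard error 0.044, adjusted p = 0.0052) and *Echs1* (-0.29, standard error 0.050, adjusted p = 0.012) passed the adjusted p below 1.3-fold. *Bcat1* stood at 49.1, 54.5 and 63.2 FPKM against 41.5, 44.9 and 49.9 FPKM (0.28, standard error 0.11, adjusted p = 0.13), so that the ratio of *Bcat2* to *Bcat1* was 5.499, 6.34 and 6.88 in siH19 and 9.41, 9.48 and 10.8 in siCtrl libraries, without overlap. The ratio of *Pcca* to *Pccb* was 3.63, 3.85 and 3.98 against 3.27, 3.36 and 3.57, also without overlap. The ratios of *Bckdha* to *Bckdhb*, *Mccc1* to *Mccc2*, *Ppm1k* to *Bckdk* and *Dbt* to *Bckdhb* overlapped. None of 7 transporters and regulators tested was called. Of the 7 related enzyme genes, the dehydrogenase complex subunits and *Pcx*, 4 were called lower (median -0.38). Among them were *Ogdh* of the oxoglutarate dehydrogenase complex (-0.50) and *Pdhb* of the pyruvate dehydrogenase complex (-0.45). Without the minimum fold change all 7 passed, each lower. Of 14 mitochondrial housekeeping genes, 2 were called lower (median -0.23), 9 passed the adjusted p, all lower, and 10 had every siH19 library below every siCtrl library.

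Finally, genes with like patterns were listed over the 8 groups. Each gene's mean log2(FPKM + 1) in the 8 groups was centred on its own mean, and the root mean square difference from the mean profile of the 10 genes was taken. A median of at least 5 FPKM was required, which 9223 genes reached. That number includes the 10 members, which were left out of this ranking. The nearest were *Pmm1* (0.12), *2310001K24Rik* (0.12), *Aldh4a1* (0.12), *4930404N11Rik* (0.12) and *Prdx3* (0.13). *Aldh4a1* encodes an enzyme of proline breakdown and *Prdx3* a mitochondrial peroxidase, and *Prdx3* for example stood at 45.7, 447, 70.9 and 229 FPKM in siCtrl BAT at d0 and d3 and vWAT at d0 and d3. The single genes nearest to the members were *Crat* (0.23) for *Bcat2*, *Rab3a* (0.084) for *Bckdha*, *Tmem120a* (0.16) for *Bckdhb*, *Decr1* (0.096) for *Dbt*, *Idh1* (0.040) for *Ivd*, *Fdxr* (0.11) for *Mccc1*, *Pxmp4* (0.075) for *Mccc2*, *Pdhb* (0.10) for *Hibch*, *2310001K24Rik* (0.091) for *Aldh6a1* and *4930404N11Rik* (0.13) for *Pcca*. The members themselves were not each other's nearest genes, except that *Aldh6a1* was second nearest to *Pcca* (0.14).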

How the data were processed

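RNA-seq was carried out on primary SVF cells in 24 libraries, 3 for each combination of depot, siRNA and day, grouped by the labels. The authors removed low-quality reads and deposited 1 table of values per gene and library, whose unit the file does not name. The values are read here as FPKM, the unit the methods of the study name, quantified by the authors against the Ensembl annotation of the mouse genome GRCm38. The submitters' processing notes name FastQC 0.10.1, TopHat2 2.0.10, STAR, Cufflinks 2.2.1, DESeq2, R 3.2.2 and GRCm38.p5 without saying which made the table. The labels and the methods differ on the read layout (paired or single end) and on whether the library kit kept strand. Multi-mapped reads and overlapping genes may therefore have been split in ways that move the values of genes with near copies. Per-library sums were 710800 to 841500 FPKM. The table holds no counts, so no counting interval is given, and the number of libraries limits the precision.

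Genes with at least 1 FPKM in at least 3 of the libraries of a comparison were tested on log2(FPKM + 1) with limma 3.58.1 in R 4.3.3, with an intensity trend, only the groups compared and no covariate. Interactions used the 4 groups concerned. Other values were computed in Python 3.11.15 with pandas 2.3.3 and scipy 1.17.1. All 13 fits (10 comparisons and 3 interactions) covered the whole table, and the fit was tested on simulated data. The table's symbol is blank for many rows and was filled from Ensembl IDs for 28503 genes, leaving 254 without a symbol. The 10 members and the gene lists were chosen with earlier results of these data known. The genes named are all 10 members, *H19*, marker genes, up to 4 called genes with the largest differences in each other list and comparison, and genes of the pathway, transport and regulation lists whose role is described. Slc7a5 and Phb were not analysed here, *Mut* and *Pcx* were used under these symbols rather than Mmut and Pc, and results of some further genes are not reported here. Replicate libraries correlated at r = 0.988 to 0.991 across genes, and none held the values of another. No column was left out (0). The alternatives were a pseudocount of 0.1, no filter on low values, scaling by median ratios over genes of at least 5 FPKM, no minimum fold change, all 24 libraries in one fit, the replicate number as a block, and leaving out each library in turn. Promoter windows came from RefSeq (GRCm38.p6), and where a gene had more than 1 the window nearest to the table's gene start was used for the 10 genes and the first listed for the others.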

Additional observations from a re-analysis of the deposited data

Results flagged for a closer look

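The rise from d0 to d3 differed between the depots for all 10 genes in siCtrl cells by a test of the difference itself (limma, adjusted over 14111 genes), and was larger in BAT in each case. That direction was called for 24.9% of the genes tested. The difference between the rises was 1.94 for *Dbt*, 1.68 for *Hibch*, 1.23 for *Bckdhb*, 1.04 for *Aldh6a1*, 0.97 for *Ivd*, 0.92 for *Mccc1*, 0.86 for *Mccc2*, 0.69 for *Pcca*, 0.62 for *Bcat2* and 0.61 for *Bckdha*, on the log2(FPKM + 1) scale. *Mccc1* differs from the other 9 in that it rose more in BAT and was still lower there at d3.

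The difference between siH19 and siCtrl cells at d3 differed between the depots for *Bcat2* (-0.37, adjusted p = 0.0031) and *Mccc2* (-0.33, adjusted p = 0.015), with the lower value in BAT. This direction was called for 3.52% of the 13762 genes tested. In BAT the siH19 difference differed between the days for *Aldh6a1* (0.33, adjusted p = 0.045), with the larger deficit at d0. That direction was called for 7.79% of the 13575 genes tested. The median of this interaction was 0.23 over the 10 genes and 0.09 over all genes. The *Aldh6a1* value lay at percentile 82 of all genes. The *Aldh6a1* call was kept in 1 of the 12 fits that left out 1 library. It was lost without the filter on low values and with median ratio scaling.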

How the results depend on the processing

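The rise of all 10 genes from d0 to d3, its difference between the depots and the depot comparison at d3 kept their counts within 1.5 times under every alternative, and a pseudocount of 0.1 changed the side of the threshold of none of the 130 gene values. Calls between siH19 and siCtrl cells were less stable. In BAT at d3, 0 genes were called, 1 with median ratio scaling, 6 without the minimum fold change and 0 to 2 when 1 library was left out (2 without siCtrl library 1 or siH19 library 3, 1 without siH19 library 1). In BAT at d0, 1 gene was called, 0 without the filter on low values, 6 in one fit of all 24 libraries and 0 in each fit that left out 1 library. In vWAT at d0, 1 gene was called, 0 without the filter, 0 with median ratio scaling, 2 in one fit of all 24 libraries and 0 to 1 when 1 library was left out. For the depots at d0, 5 genes were called, 2 with median ratio scaling and 3 to 4 with 1 library left out. The depot by siRNA interaction was called for 2 genes and for 6 with median ratio scaling. The day by siRNA interaction in BAT was called for 1, for 0 without the filter or with median ratio scaling, and for 0 to 1 with 1 library left out. The cause of these shifts was not tested.

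The sign turned with median ratio scaling for *Pcca* between the depots at d0 (0.0713) and for *Mccc2* in the day by siRNA interaction in BAT (-0.0248). With 1 library left out, values on both sides of 0 were found between siH19 and siCtrl vWAT cells at d3 for *Aldh6a1* (-0.0813 to 0.0029), *Bcat2* (-0.0294 to 0.0156), *Dbt* (-0.0218 to 0.091), *Hibch* (-0.0621 to 0.0822), *Ivd* (-0.0291 to 0.0634), *Mccc1* (-0.0902 to 0.0317) and *Pcca* (-0.0377 to 0.0574), in BAT at d0 for *Dbt* (-0.1018 to 0.1506), between the depots at d0 for *Pcca* (-0.1587 to 0.0889) and in the day by siRNA interaction for *Mccc1* (-0.0104 to 0.2536). None of these values was called.

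Over all genes, median ratio scaling changed the split of higher and lower calls between the depots at d0 from 1343 and 2753 to 1767 and 2050, with a shift of the median of 0.10, between siH19 and siCtrl BAT cells at d3 from 799 and 272 to 650 and 370, and in vWAT at d0 from 43 and 157 to 62 and 128. Of the calls of the depot by siRNA interaction, 966 of 1451 were above 0, and 702 of 1415 with this scaling, and of those of the day by siRNA interaction in BAT 1058 of 1230, and 547 of 875. The labels share replicate numbers between groups, but libraries with the same number did not deviate together (the lowest correlation per comparison was -0.14 to 0.03). With 3 libraries a group this cannot show whether the libraries were paired. The numbers were therefore used only as a block in 1 of the alternatives. With the replicate block, 0 of the 10 genes were called in BAT at d0 (2 of all genes, against 245) and 0 in vWAT at d0 (2 of all genes, against 200), and the other counts of the 10 stayed within 1.5 times, although *Hibch* was no longer called between the depots at d0 (adjusted p = 0.052). With 3 libraries a group and no counts, small differences of low genes cannot be resolved.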
